A study of Mus musculus with 3 samples.

Results

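Collagen chain genes were followed across 3 sorted populations of mouse endosteal cells, the cells that line the inner surface of bone. The members are the genes whose only symbol in the array's probe annotation is that of a collagen alpha chain, that is Col, a type number, the letter a and a chain number. There were 42 such genes among 18193 genes on the array, with 82 probe sets, and each gene was represented by its brightest probe set. All populations came from C57BL/6 mice, were released from femur and tibia fragments with collagenase, and lacked CD45, CD31 and Ter119, which mark leukocytes, endothelium and the red cell lineage. They were ALCAM(+) Sca-1(-) cells (called ALCAM+ here), ALCAM(-) Sca-1(+) cells (Sca-1+) and ALCAM(-) Sca-1(-) cells (double-negative). ALCAM is a protein of cell-to-cell adhesion, and Sca-1 is a surface protein used to enrich progenitors. The labels name bone marrow as the source and endosteal cells as the cell type. The age and number of the mice are not given in the sources used here, and each population is a bulk sort on these surface markers, not a single cell type. Each was measured on 1 array, so no difference below has a replicate check or a p-value, and "higher" and "lower" refer to a size rule of 4-fold.

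Collagens are the main structural proteins of connective tissue, and each molecule is a triple helix of 3 alpha chains that are the same or different. Fibrillar collagens assemble into the banded fibrils of bone, tendon and cartilage, and fibril-associated collagens (FACIT) sit on the surface of those fibrils. Type IV collagen forms the sheet of basement membranes, types VIII and X form hexagonal networks, type VI forms beaded filaments, and a few collagens span the cell membrane. Bone matrix is mostly type I collagen, cartilage matrix is built from types II, IX and XI, and type X is made by hypertrophic chondrocytes, the cartilage cells that border bone.

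Of the 42 genes, 38 had a signal above the floor of 75.4 on at least 1 array. The floor is the median signal of all probe sets, lower values were raised to it, and a fold against a value at or below it is given as "at least" that size. Col17a1, Col19a1, Col6a4 and Col6a5 stayed below the floor on the 3 arrays, with highest signals of 26.6, 65.8, 22.3 and 71.0. Among the 38 genes, 22 (57.9%) differed at least 4-fold between some 2 of the arrays, against 14.8% of the 12643 genes above the floor. Among genes over 1000 on at least 1 array the shares were 19 of 30 collagen genes (63.3%) and 20.0% of all genes. The median span between the lowest and the highest array was 2.69 on the log2 scale for the collagen genes and 0.82 for all genes above the floor. These are shares of genes on the same 3 arrays and carry no test.

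Between the populations, genes of the same structural class differed, and the groups that stood out were collagen types. The cartilage collagens of types II, IX and XI were bright in ALCAM+ and in double-negative cells and 18.9-fold to 219-fold lower in Sca-1+ cells, a range that includes Col27a1. The chains of basement membranes and of fibroblast-rich tissue, Col4a1, Col4a2, Col5a3, Col14a1 and Col18a1, were 13.3-fold to 34.1-fold higher in Sca-1+ than in double-negative cells. Col24a1, Col22a1, Col13a1 and Col10a1 had their highest signal in ALCAM+ cells and were at least 4-fold above the double-negative cells. Type VI collagen was bright and nearly level on the 3 arrays. In sorted cells measured in bulk, fewer cells of a type and less RNA per cell cannot be told apart.

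**Figure D1:**
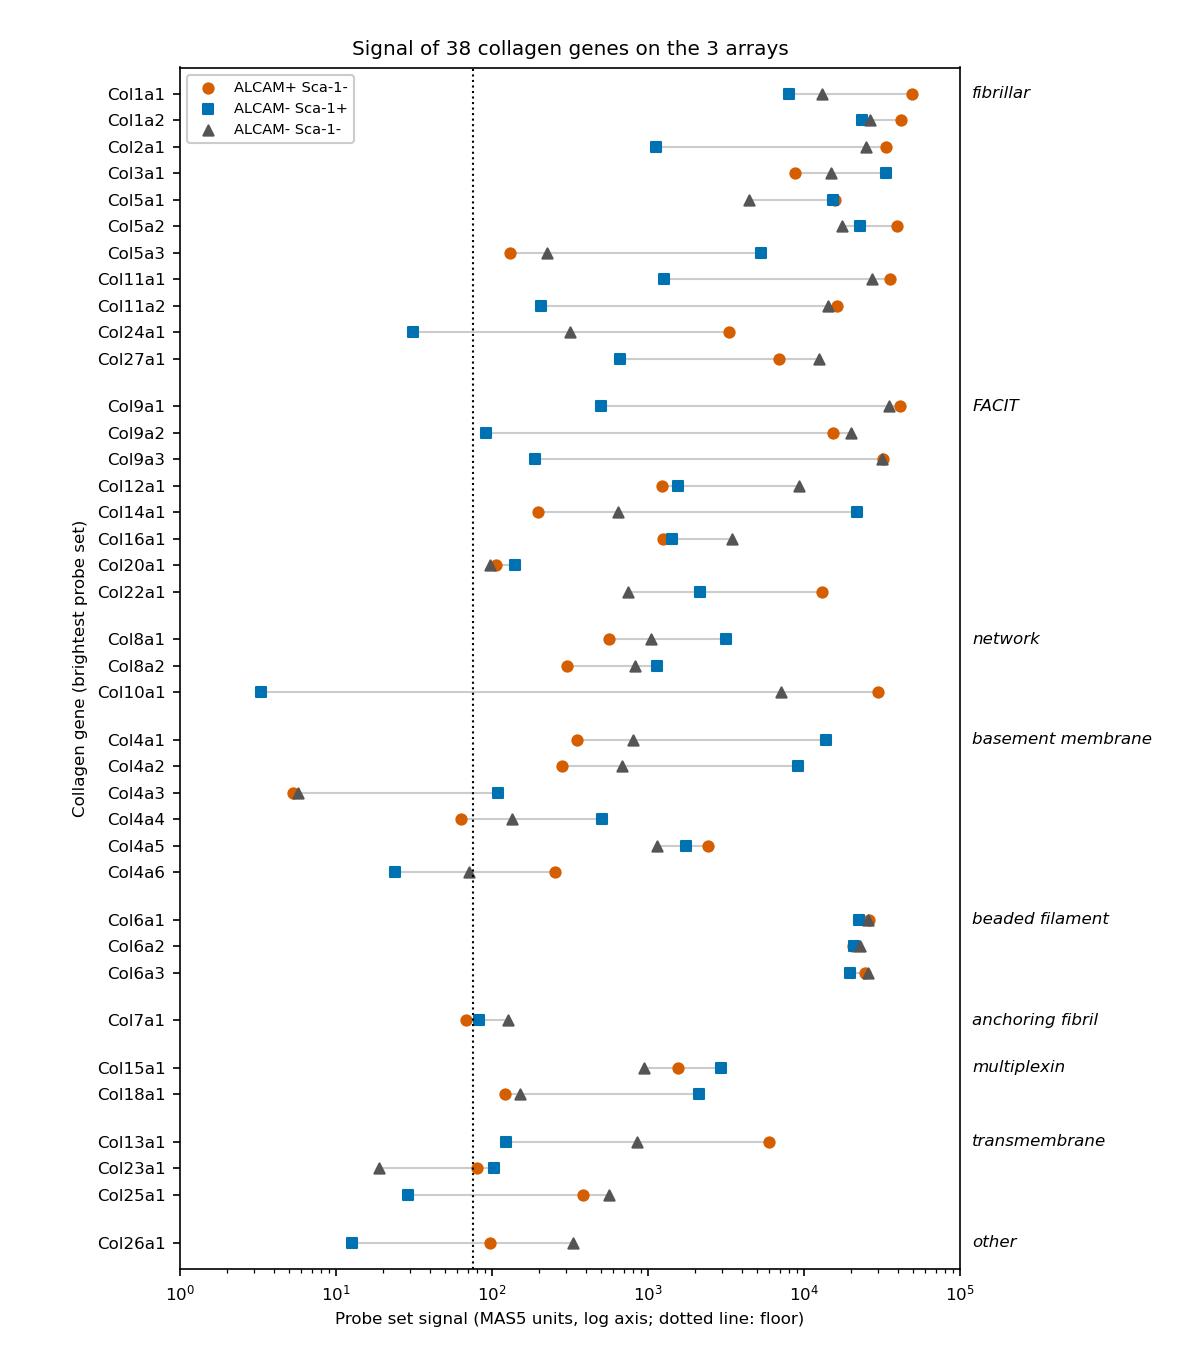
Signal of the brightest probe set (MAS5 units, log axis) of 38 collagen genes in ALCAM+ (circles), Sca-1+ (squares) and double-negative cells (triangles), 1 array each, grouped by class, with the floor of 75.4 as a dotted line. Squares lie far to the left for Col2a1, Col11a1, Col11a2, Col9a1, Col9a2, Col9a3 and Col10a1 and far to the right for Col5a3, Col14a1, Col4a1 and Col4a2, and the 3 symbols of Col6a1, Col6a2 and Col6a3 nearly coincide.

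In counts, 4 of the 38 genes (10.5%) exceeded double-negative cells at least 4-fold in ALCAM+ cells, where 2.01% of all genes above the floor did, and 1 gene (2.63%) was lower, against 2.67% of all genes. In Sca-1+ compared with double-negative cells 5 genes (13.2%) were higher, against 5.46% of all genes, and 13 (34.2%) were lower, against 4.71%. In ALCAM+ compared with Sca-1+ cells 13 genes (34.2%) were higher, against 3.99% of all genes, and 7 (18.4%) were lower, against 5.86%. The medians over the 38 genes, 0.01, -0.15 and 0.27 on the log2 scale, lay near the medians of all genes at -0.03, 0.00 and -0.01. In the first comparison 5 of the 38 genes (13.2%) passed 4-fold either way, against 4.68% of all genes above the floor. In the others members went both ways. The highest signal lay in ALCAM+ cells for 16 of the 38 genes, in Sca-1+ cells for 13 and in double-negative cells for 9, against 28.1%, 38.7% and 33.2% of all genes. Some of these leads were small, such as 1.01-fold for Col6a1 in ALCAM+ over double-negative cells. The comparisons share arrays: those with double-negative cells use the same array of these, and the last is the difference of the others and adds no measurement. By class, ALCAM+ compared with Sca-1+ cells had 6 higher and 1 lower of 11 fibrillar genes (median 2.64 on the log2 scale), 4 higher and 1 lower of 8 FACIT genes (median 1.20), and 0 higher and 3 lower of 6 basement membrane genes (median -1.64). Scaled on the spike-in controls, the calls became 3 higher and 3 lower in the first comparison and 10 higher and 9 lower in the last.

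**Figure D2:**
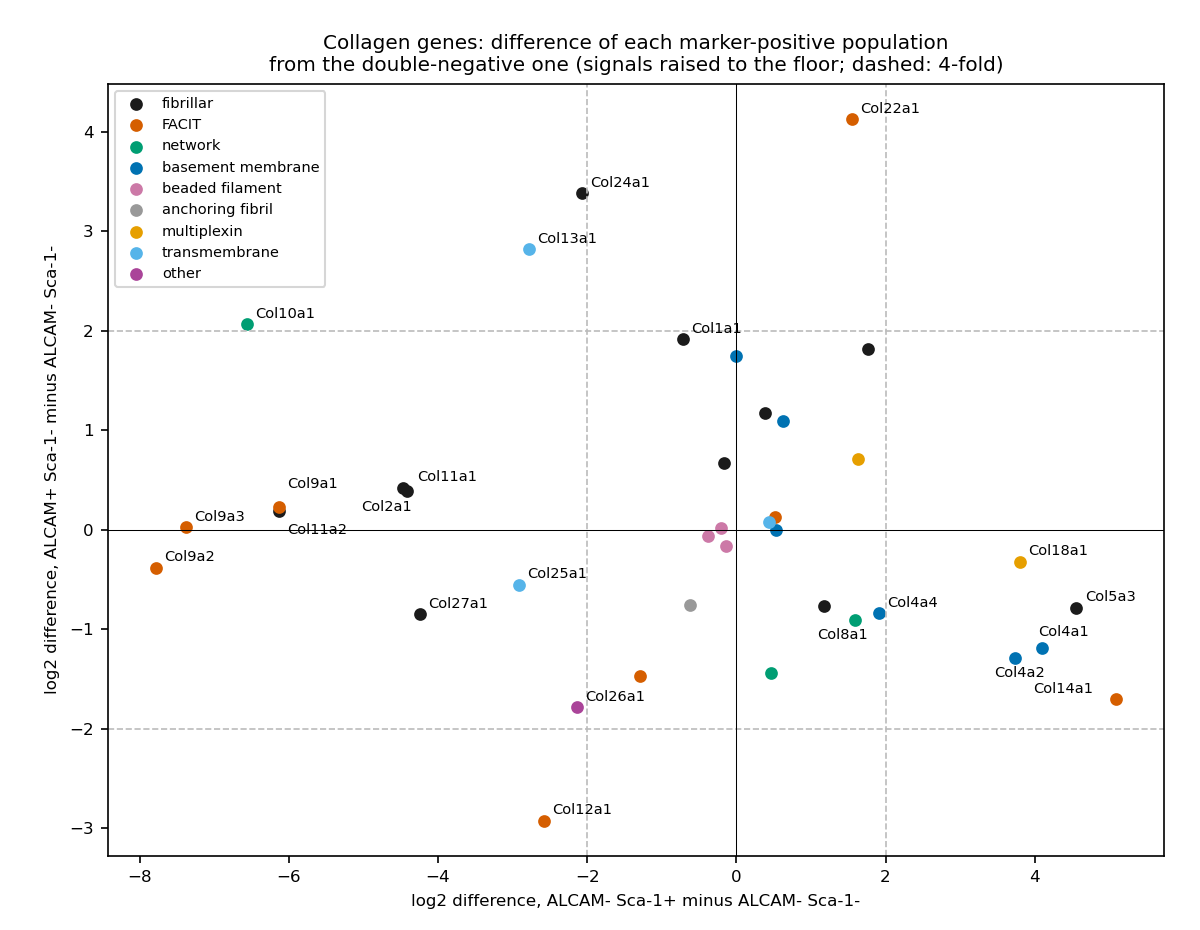
Each point is a collagen gene, placed by its log2 difference between Sca-1+ and double-negative cells (horizontal axis) and between ALCAM+ and double-negative cells (vertical axis), coloured by class, with signals raised to the floor and dashed lines at 4-fold. Both axes use the same double-negative array; the cartilage collagens lie at the left near 0 on the vertical axis, and Col22a1, Col24a1, Col13a1 and Col10a1 lie above the upper dashed line.

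Type I collagen, the main protein of bone, was bright in all populations, and the brightest probe sets of its chains did not move alike. Col1a1, which encodes its alpha 1 chain, gave 49506 in ALCAM+ cells, 7959 in Sca-1+ cells and 13081 in double-negative cells. The ALCAM+ array stood above the others, 6.22-fold over Sca-1+ and 3.78-fold over double-negative cells, the latter just short of the size rule. Its other probe set gave 36520, 8840 and 9576, or 4.13-fold and 3.81-fold. Col1a2, the alpha 2 chain, gave 41835 in ALCAM+ cells, 23516 in Sca-1+ cells and 26367 in double-negative cells, differences of 1.78-fold at most. A second bright probe set of Col1a2 spanned 26244 to 31392, and a dimmer one put double-negative cells lowest, at 404 against 3186 in ALCAM+ and 1783 in Sca-1+ cells. The 49506 of Col1a1 was the highest signal of any probe set on the ALCAM+ array. Whether saturation narrows differences between signals this high was not tested. The 6.22-fold difference of Col1a1 was under 4-fold when the arrays were scaled on the spike-in controls, at 1.84 on the log2 scale against 2.64.

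Type III collagen accompanies type I in soft tissue, and its gene Col3a1 was brightest in Sca-1+ cells. Its brighter probe set gave 8801 in ALCAM+ cells, 33329 in Sca-1+ cells and 14859 in double-negative cells, so that ALCAM+ was 3.79-fold below Sca-1+. The other probe set gave 304, 17247 and 820, a gap of 56.7-fold between ALCAM+ and Sca-1+ and of 21.0-fold between Sca-1+ and double-negative cells. Both put Sca-1+ highest and ALCAM+ lowest, but they differed by 3.90 on the log2 scale in the size of the ALCAM+ to Sca-1+ gap. That was the largest disagreement among the 16 collagen genes with at least 2 probe sets above the floor on every array, where the SD was 1.21 in this comparison against 0.75 over 4152 genes.

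Type V collagen regulates the width of type I fibrils, and its 3 chains differed in pattern. Col5a1 gave 15733 in ALCAM+ cells, 15280 in Sca-1+ cells and 4471 in double-negative cells, so the marker-positive populations were level and 3.52-fold and 3.42-fold above the double-negative cells. Col5a2 gave 39193, 22929 and 17439, highest in ALCAM+ cells by 2.25-fold over double-negative cells, and its other probe set gave a wider gap of 5.65-fold. Col5a3 gave 131 in ALCAM+ cells, 5323 in Sca-1+ cells and 225 in double-negative cells. The Sca-1+ array thus stood alone for Col5a3, 23.7-fold over double-negative and 40.6-fold over ALCAM+ cells, and its other probe set was below the floor throughout. On the log2 scale the chains of type V lay 6.11 apart in the ALCAM+ to Sca-1+ comparison, the widest range of the 9 trimers examined.

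Type II collagen is the main fibril of cartilage, and type XI forms its core together with Col2a1. Col2a1 gave 33310 in ALCAM+ cells, 1125 in Sca-1+ cells and 24959 in double-negative cells, 22.2-fold lower in Sca-1+ than in double-negative cells and 1.33-fold apart between the others. Col11a1 gave 35620, 1271 and 27258, and Col11a2 gave 16352, 205 and 14337. The Sca-1+ array was the low one for each, by 21.4-fold for Col11a1 and 70.0-fold for Col11a2 against double-negative cells, whereas ALCAM+ and double-negative cells differed by at most 1.33-fold over the 3 genes. The other probe set of Col11a1 gave 39.3-fold for the same comparison. Col27a1, a fibrillar collagen gene of cartilage, had its highest signal in double-negative cells, at 12426 against 6887 in ALCAM+ and 658 in Sca-1+ cells, 18.9-fold lower in Sca-1+ than in double-negative cells.

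Col24a1, a fibrillar collagen gene expressed in bone, had another order. It gave 3285 in ALCAM+ cells, 31.1 in Sca-1+ cells and 316 in double-negative cells. ALCAM+ cells were 10.4-fold above double-negative and at least 43.6-fold above Sca-1+ cells, where the signal lay below the floor. The difference between Sca-1+ and double-negative cells, at least 4.19-fold, could not be read with the floor at the 75th percentile, since both values lie below it. Over the fibrillar class, 8 of 11 genes had their highest signal in ALCAM+ cells, against 28.1% of all genes above the floor, and 7 of 11 had their lowest in Sca-1+ cells, against 37.3%. Several of the leads in ALCAM+ cells were small. Col5a1 was 1.03-fold above Sca-1+ cells, and Col11a2, Col11a1 and Col2a1 were 1.14-fold to 1.33-fold above double-negative cells. Scaled on the hybridization controls, Col2a1, Col11a1 and Col11a2 were below double-negative cells, at -0.08, -0.11 and -0.31 on the log2 scale. Col1a2 was at -0.46 there, but the scaling also changed which of its probe sets was brightest. Its second bright probe set, at 0.03 before the scaling, then stood for the gene, so the change of sign is not due to scaling alone. Against Sca-1+ cells, Col5a1 and Col5a2 fell as low as -0.75 and -0.02 over the processing alternatives.

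Among the FACIT collagens, type IX coats the fibrils of cartilage. Col9a1 gave 41318 in ALCAM+ cells, 502 in Sca-1+ cells and 35205 in double-negative cells. Col9a2 gave 15367, 91.1 and 19955, and Col9a3 gave 32185, 189 and 31550. The 3 chains moved together: Sca-1+ cells lay 70.1-fold, 219-fold and 167-fold below double-negative cells, and ALCAM+ and double-negative cells were within 1.30-fold of each other. A second probe set gave 129-fold for Col9a1 and 212-fold for Col9a3. A further, dim probe set of Col9a3 was above the floor only in double-negative cells, at 206, and so gave no difference between ALCAM+ and Sca-1+ cells.

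Sequence just upstream of the start of Col9a2 and Col11a2 is shown because these genes had the largest differences in their classes between Sca-1+ and double-negative cells. The windows are the 250 bases before the RefSeq transcription start in build GRCm38.p6, 5′ to 3′ in the direction of the gene, at chr4:121039316-121039565, plus strand, and chr17:34038888-34039137, plus strand. Capitals mark matches, on either strand, to any of 5 short motifs: the SOX-type core ACAAT, the RUNX-type core TGNGGT, the CCAAT box CCAAT, the GC box GGGCGG and the TATA box TATAAA. Matches to different motifs may share letters.
Col9a2: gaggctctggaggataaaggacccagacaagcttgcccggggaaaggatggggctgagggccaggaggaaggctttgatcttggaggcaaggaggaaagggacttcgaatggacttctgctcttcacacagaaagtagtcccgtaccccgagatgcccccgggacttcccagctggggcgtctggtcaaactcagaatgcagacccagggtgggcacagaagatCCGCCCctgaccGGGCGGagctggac
Col11a2: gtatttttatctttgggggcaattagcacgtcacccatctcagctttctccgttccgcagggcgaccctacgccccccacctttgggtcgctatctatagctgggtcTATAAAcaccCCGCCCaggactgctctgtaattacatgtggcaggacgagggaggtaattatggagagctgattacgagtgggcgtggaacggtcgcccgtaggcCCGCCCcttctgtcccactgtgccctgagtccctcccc
Col9a2 held 2 GC boxes and none of the other motifs, and Col11a2 held 2 GC boxes and 1 TATA box.

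The remaining FACIT genes did not follow type IX. Col14a1, a fibril-associated collagen gene of skin, tendon and other dense connective tissue, gave 197 in ALCAM+ cells, 21748 in Sca-1+ cells and 638 in double-negative cells. Sca-1+ cells were 34.1-fold above double-negative and 111-fold above ALCAM+ cells, and a second probe set gave 44.7-fold and 172-fold. Col12a1, of tendon and the bone surface, was highest in double-negative cells, at 9329 against 1232 in ALCAM+ and 1562 in Sca-1+ cells, or 7.57-fold and 5.97-fold lower. Its other probe set above the floor also put double-negative cells highest, at 2245 against 923 and 337, but with only 2.43-fold for ALCAM+ cells. Averaged over its 4 probe sets, of which 2 were below the floor, both differences of Col12a1 were under 4-fold, at -1.05 and -1.33 on the log2 scale. Col16a1 had the same order, with 3475 in double-negative cells against 1256 and 1423, under 4-fold.

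Col22a1, a collagen gene of tissue junctions, was the 1 FACIT gene at least 4-fold above double-negative cells in ALCAM+. It gave 12974 in ALCAM+ cells, 2164 in Sca-1+ cells and 741 in double-negative cells. ALCAM+ cells were 17.5-fold above double-negative cells, with 13.1-fold and 14.3-fold in the other probe sets, and 6.00-fold above Sca-1+ cells. The latter was 1.79 on the log2 scale, under 4-fold, with spike-in scaling. Col20a1 lay close to the floor on the 3 arrays, between 97.6 and 140.

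Type X collagen, the network collagen of hypertrophic cartilage, showed the widest span of all members. Col10a1 gave 29730 in ALCAM+ cells, 3.3 in Sca-1+ cells and 7100 in double-negative cells. It was not above the floor in Sca-1+ cells, which puts ALCAM+ at least 394-fold and double-negative cells at least 94.2-fold higher. Between ALCAM+ and double-negative cells it differed 4.19-fold, which was under 4-fold after quantile normalization (1.84 on the log2 scale) and under spike-in scaling (1.58 and 1.57). Type VIII, the network collagen of vessel walls and other membranes, had the opposite order. Col8a1 gave 560 in ALCAM+ cells, 3166 in Sca-1+ cells and 1052 in double-negative cells, and Col8a2 gave 305, 1147 and 828. Both were highest in Sca-1+ and lowest in ALCAM+ cells, with gaps of 5.65-fold and 3.77-fold between these. The gap of Col8a1 was 5.58-fold in its second probe set and 1.66 on the log2 scale when averaged with another probe set below the floor.

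The upstream windows of Col10a1 (chr10:34389731-34389980, plus strand, within the span of the gene Nt5dc1) and Col24a1 (chr3:145292222-145292471, plus strand) are shown as genes at their highest in ALCAM+ cells, and that of Col5a3 (chr9:20815068-20815317, minus strand) as a gene high in Sca-1+ cells, with the same marking of motifs.
Col10a1: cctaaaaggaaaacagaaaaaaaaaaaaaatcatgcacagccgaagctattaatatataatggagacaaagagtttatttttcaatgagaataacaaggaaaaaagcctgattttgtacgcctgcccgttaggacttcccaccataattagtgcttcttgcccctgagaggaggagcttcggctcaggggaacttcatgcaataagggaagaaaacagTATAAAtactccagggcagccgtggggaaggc
Col24a1: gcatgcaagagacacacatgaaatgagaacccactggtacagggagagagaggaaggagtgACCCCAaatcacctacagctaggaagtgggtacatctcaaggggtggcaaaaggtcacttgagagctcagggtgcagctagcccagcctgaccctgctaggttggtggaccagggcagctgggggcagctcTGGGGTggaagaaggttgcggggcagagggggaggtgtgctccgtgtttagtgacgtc
Col5a3: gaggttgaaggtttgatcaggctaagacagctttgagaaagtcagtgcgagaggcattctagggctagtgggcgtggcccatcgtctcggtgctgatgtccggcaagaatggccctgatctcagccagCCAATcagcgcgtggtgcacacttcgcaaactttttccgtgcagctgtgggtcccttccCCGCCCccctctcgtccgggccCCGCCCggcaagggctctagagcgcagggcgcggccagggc
Col10a1 held 1 TATA box, Col24a1 held 2 RUNX-type cores, and Col5a3 held 1 CCAAT box and 2 GC boxes.

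Basement membrane collagen separated the chains of ordinary basement membranes from the rest. Col4a1 and Col4a2 encode the chains found in nearly all basement membranes. Col4a1 gave 352 in ALCAM+ cells, 13827 in Sca-1+ cells and 804 in double-negative cells, and Col4a2 gave 281, 9094 and 685. The pair moved in step: Sca-1+ cells were 17.2-fold and 13.3-fold above double-negative cells and 39.3-fold and 32.4-fold above ALCAM+ cells. The second probe set of Col4a1 gave 13.1-fold and 34.2-fold. The genes lie head to head, and their RefSeq starts are 21 bases apart on chromosome 8, placed so that the first bases of the transcripts overlap. The 30 bases around both starts (chr8:11312801-11312830, plus strand, GRCm38.p6) are shown because the pair shares them.
Col4a1-Col4a2: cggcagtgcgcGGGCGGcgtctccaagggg
The capitals mark 1 GC box, which lies between the starts and so downstream of each. It is outside the upstream windows in which motifs were counted.

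The other type IV genes were dimmer or followed other orders. Col4a4, a chain of the basement membranes of kidney and some other organs, gave 63.1 in ALCAM+ cells, 505 in Sca-1+ cells and 135 in double-negative cells. Sca-1+ cells were at least 6.70-fold above ALCAM+ cells, a log2 difference that was -0.22 with the floor at the 75th percentile and -1.23 as a mean over all probe sets of Col4a4. Its neighbour Col4a3 was above the floor only in Sca-1+ cells, at 109. Col4a5 was highest in ALCAM+ cells, at 2421 against 1757 and 1140, and the brighter probe set of Col4a6 was above the floor only in ALCAM+ cells, at 253. The other probe set of Col4a6 gave 160, 62.8 and 99.3 in ALCAM+, Sca-1+ and double-negative cells. There ALCAM+ cells were 1.62-fold above double-negative cells. Col4a5 stayed under 4-fold in each comparison. In its brighter probe set Col4a6 was at least 3.36-fold above both other populations, a bound set by the floor. Its log2 difference from double-negative cells ran from 0.00 to 1.83 over the processing alternatives. With the floor at the 25th percentile its difference from Sca-1+ cells was 3.41 on the log2 scale, past 4-fold. With that lower floor Col4a3 also passed 4-fold, at 2.37 above double-negative cells and -2.37 for ALCAM+ against Sca-1+ cells. Markers of endothelium, a cell type that makes basement membrane, were absent or faint: 5 of 9 were below the floor on the 3 arrays, Pecam1, Cdh5, Tie1, Emcn and Cldn5. The summed signal of the 9 was 348 in ALCAM+, 884 in Sca-1+ and 471 in double-negative cells, and Tek made up most of the sum in Sca-1+ cells. The part of endothelial cells in the Col4a1 and Col4a2 result was not tested.

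Type VI collagen forms beaded filaments in almost every connective tissue, and its 3 main chains were level. Col6a1 gave 26076, 22432 and 25806 in ALCAM+, Sca-1+ and double-negative cells, Col6a2 gave 20552, 20831 and 22991, and Col6a3 gave 24702, 19714 and 25679. No pair of arrays differed by more than 1.30-fold for these probe sets, and the second probe set of Col6a2 differed by up to 1.47-fold. Over the processing alternatives the log2 difference of ALCAM+ from Sca-1+ cells fell as low as -0.58, -0.82 and -0.47 for Col6a1, Col6a2 and Col6a3. Signals this high lie near the top of the range of the arrays, whose highest values were 49506, 37394 and 39589, and whether saturation narrows differences there was not tested. Col7a1, of the anchoring fibrils under epithelia, reached only 127, in double-negative cells.

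The multiplexins are collagens of the zone next to basement membranes. Col18a1, the precursor of endostatin, gave 121 in ALCAM+ cells, 2119 in Sca-1+ cells and 152 in double-negative cells. Sca-1+ cells were 14.0-fold above double-negative and 17.5-fold above ALCAM+ cells, and a second probe set gave 13.8-fold and at least 18.0-fold. Col15a1 was also highest in Sca-1+ cells, at 2924 against 1547 and 945, but under 4-fold.

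Among transmembrane collagens, Col13a1, a protein of cell adhesion sites, gave 5952 in ALCAM+ cells, 123 in Sca-1+ cells and 845 in double-negative cells. ALCAM+ cells were 7.05-fold above double-negative and 48.5-fold above Sca-1+ cells. Sca-1+ cells were also 6.88-fold below double-negative cells, a difference of -0.96 on the log2 scale with the floor at the 75th percentile. Col25a1 gave 385, 29.0 and 566, so that it was not above the floor in Sca-1+ cells, and Col26a1, in no class here, gave 96.4, 12.6 and 331. Their calls, at least 7.50-fold and 4.39-fold below double-negative cells in Sca-1+, ended with the floor at the 75th percentile and when all probe sets were averaged. Col23a1 stayed near the floor, at 79.7, 103 and 19.0. With the floor at the 25th percentile, Col23a1 passed 4-fold between Sca-1+ and double-negative cells (2.28 on the log2 scale) and Col26a1 between ALCAM+ and Sca-1+ cells (2.19).

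Chains that assemble into the same molecule could thus be set side by side in each comparison. In ALCAM+ compared with Sca-1+ cells, the log2 differences of the chains ran from 6.36 to 7.41 for type IX, from 4.81 to 6.32 for type XI with Col2a1, from -5.30 to -5.02 for Col4a1 and Col4a2, and from -0.02 to 0.33 for type VI. Those of type I ran from 0.83 to 2.64 and those of type V from -5.34 to 0.77. In the gene order of RefSeq, 7 pairs of collagen genes are direct neighbours among protein-coding genes, and both genes were above the floor in 5 of them. Col4a1 and Col4a2 were alike, as were Col6a1 and Col6a2, whereas Col3a1 and Col5a2 had log2 differences of -1.92 and 0.77 between ALCAM+ and Sca-1+ cells.

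Agreement between probe sets of a gene was the only check of precision within these arrays. Of the 13 genes with calls above Sca-1+ in ALCAM+ cells, 6 had another probe set above the floor, in all 6 at least 1 of these also passed 4-fold, and all others pointed the same way in 5 of them, with Col9a3 as the exception. Of the 7 lower genes, 5 had another such probe set, all pointing the same way, and in 4 it passed 4-fold. In Sca-1+ compared with double-negative cells, all others pointed the same way for the 3 higher and 5 lower genes that had them. For each of these genes at least 1 other probe set passed 4-fold, while the dim one of Col9a3 gave at least 2.73-fold. In ALCAM+ compared with double-negative cells, only 1 of the 4 higher genes, Col22a1, had other probe sets above the floor. These pointed the same way and passed 4-fold. Col24a1, Col13a1 and Col10a1 have 1 probe set each, so their calls had no such check. For the 1 lower gene, Col12a1, the other probe set above the floor pointed the same way, at 2.43-fold. The spread from sort to sort and from mouse to mouse was not measured.

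**Figure D3:**
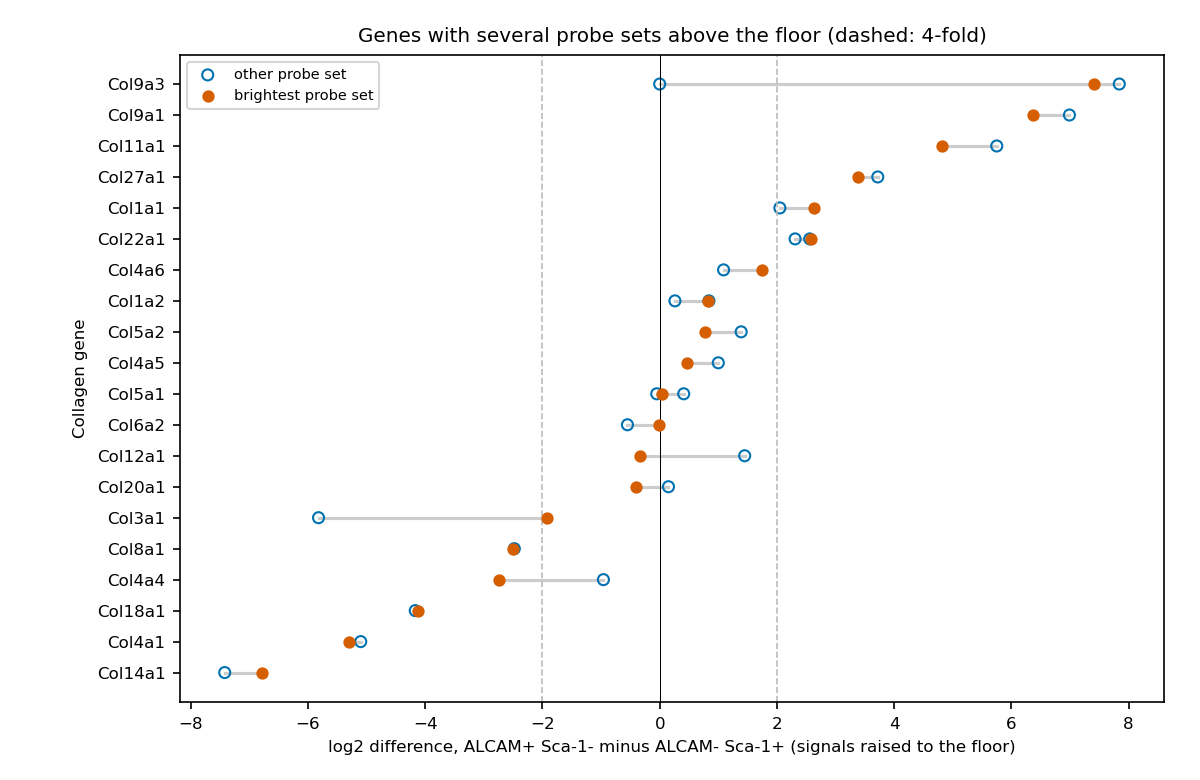
Log2 difference between ALCAM+ and Sca-1+ cells for each probe set of the collagen genes with more than 1 probe set above the floor, with the brightest as a filled point, the others as open points, signals raised to the floor and dashed lines at 4-fold. Points of a gene lie close together except for Col3a1, Col9a3, Col12a1 and Col4a4.

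Genes that make, process, bind or break down collagen were taken from textbook lists and read by the same size rule. In ALCAM+ compared with Sca-1+ cells, where 3.99% of all genes above the floor were higher and 5.86% lower, the hydroxylation list had 0 of 15 higher, 1 lower and a median of 0.54 on the log2 scale. The lower one was P4ha3, a prolyl 4-hydroxylase subunit gene, at 61.2, 902 and 245 in ALCAM+, Sca-1+ and double-negative cells, at least 12.0-fold lower in ALCAM+ than in Sca-1+ cells. Plod2, a lysyl hydroxylase gene, was 3.86-fold higher in ALCAM+ cells and Colgalt2, a collagen galactosyltransferase gene, 3.49-fold higher, and Colgalt2 was 12.7-fold lower in Sca-1+ than in double-negative cells. The folding and export list had 1 higher gene of 9, with a median of 0.91. That gene was Creb3l1, a transcription factor gene that drives collagen secretion in bone, at 6079, 1492 and 1207, 4.07-fold above Sca-1+ and 5.04-fold above double-negative cells. Serpinh1, the collagen chaperone, gave 32131, 15885 and 23424.

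The crosslinking enzymes, which join collagen chains outside the cell, split between the populations. Lox gave 24173 in ALCAM+ cells, 8081 in Sca-1+ cells and 3362 in double-negative cells, 7.19-fold above double-negative cells in ALCAM+. Loxl4 gave 6709, 214 and 1392, 31.4-fold above Sca-1+ cells in ALCAM+. Loxl1 gave 320, 16408 and 992, 51.3-fold lower in ALCAM+ than in Sca-1+ cells. Of the 4 propeptide processing genes above the floor, 0 passed 4-fold in any comparison, and Bmp1, the C-proteinase, was lowest in double-negative cells, at 1979 against 6020 and 7088.

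The genes of proteins that bind the fibril surface had 0 of 14 higher and 5 lower in ALCAM+ than in Sca-1+ cells, Tnxb at 129-fold, Aspn at 17.6-fold, Kera at 7.99-fold, Ogn at 7.79-fold and Tnmd at 6.61-fold. Collagen receptor genes had 2 of 7 higher, the integrin chains Itga10 at 8.41-fold and Itga1 at 4.66-fold, and 0 lower, while Ddr2, a receptor tyrosine kinase for fibrillar collagen, was 2.56-fold lower. Of the 9 breakdown genes Mmp13, which encodes a collagenase of cartilage and bone, was 13.0-fold higher in ALCAM+ than in Sca-1+ cells, at 2752 against 212, and no other passed. Among 11 transcription factors of collagen genes, Sp7, of osteoblasts, was 36.9-fold higher in ALCAM+ than in Sca-1+ cells, Mef2c 14.0-fold and Sox9, the main factor of cartilage, 10.6-fold. Sox9 gave 3249 in ALCAM+ cells, 306 in Sca-1+ cells and 4187 in double-negative cells, and its part in the collagen results was not tested.

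**Figure D4:**
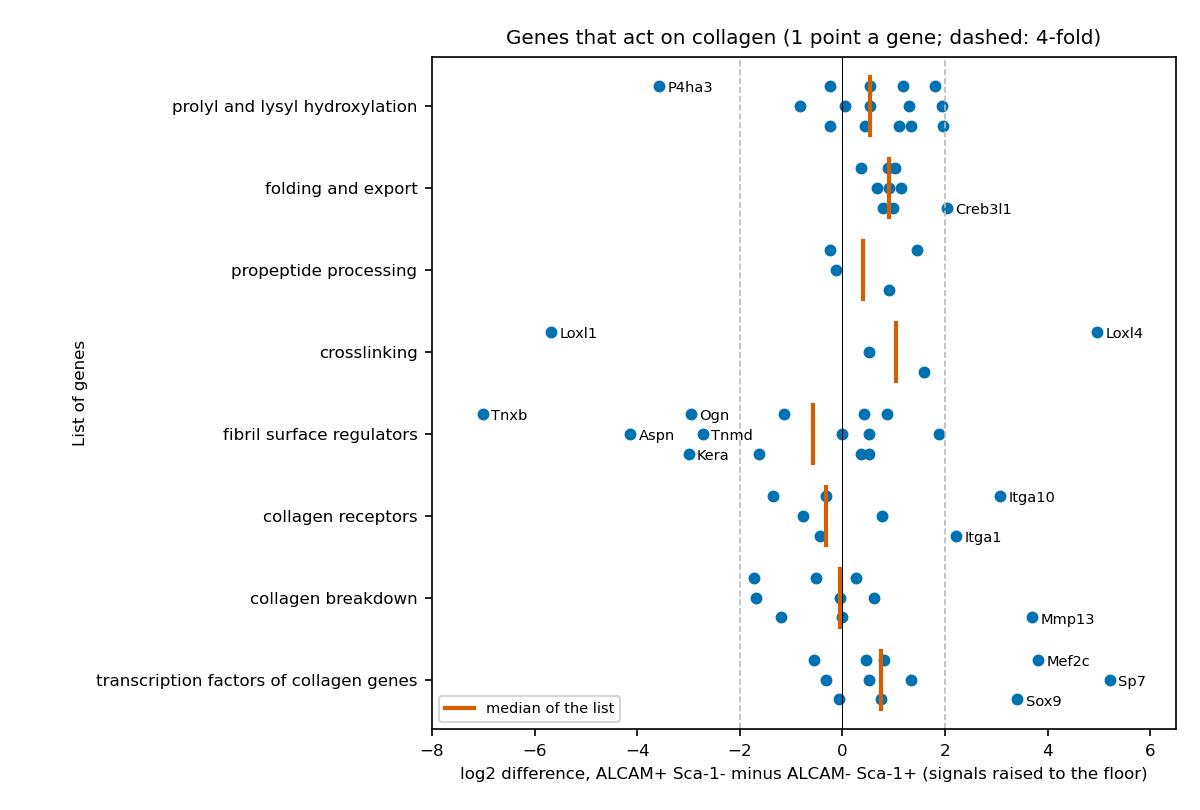
Log2 difference between ALCAM+ and Sca-1+ cells of genes that act on collagen, 1 point a gene, by list, with the median as a bar, signals raised to the floor and dashed lines at 4-fold. Loxl1 and Tnxb lie furthest to the left and Loxl4 and Sp7 furthest to the right, while the hydroxylation and folding lists lie mostly between 0 and the dashed line at the right.

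Some lists of cell type markers moved with these patterns and others did not, and their part in the results was not tested. The 11 chondrocyte markers had a summed signal of 230667 in ALCAM+, 31185 in Sca-1+ and 210974 in double-negative cells, and 10 of 11 were at least 4-fold lower in Sca-1+ than in double-negative cells. Comp, the exception, gave 25933 in Sca-1+ cells. The 6 osteoblast markers summed to 118084, 3202 and 69231, and the 6 osteocyte markers, of which Sost, Mepe and Fgf23 were below the floor throughout, to 25248, 4999 and 2178, with Pdpn alone highest in Sca-1+ cells among those above the floor. The 9 fibroblast and progenitor markers summed to 5677, 97862 and 2549, and 9 of 9 passed 4-fold above double-negative cells in Sca-1+. The 6 tendon markers summed to 38509, 66199 and 60566, and the 6 adipocyte markers to 438, 9457 and 1132, of which 2, Lpl and Lepr, passed 4-fold above double-negative cells in Sca-1+. The 8 pericyte and smooth muscle markers summed to 10294, 9860 and 16342, and their members went different ways. Rgs5, a pericyte marker, gave 58.6, 2333 and 276, at least 30.9-fold above ALCAM+ and 8.45-fold above double-negative cells in Sca-1+, the order of Col4a1 and Col4a2. Tagln, of smooth muscle, gave 189, 219 and 1768, and Cspg4 made up most of the sum in ALCAM+ and double-negative cells, at 8932, 3278 and 10408. Neutrophil markers summed to 391, 16253 and 3015 and red cell markers to 364, 251 and 17402, in cells sorted as lacking CD45 and Ter119. Of the 8 neutrophil markers, 6 were higher in Sca-1+ than in double-negative cells, whereas Mpo (25.2, 91.4 and 1355) and Elane (37.3, 63.5 and 483) were lower. The 3 Schwann cell markers summed to 4454, 1076 and 7042, skeletal muscle markers to 918, 278 and 1415, macrophage and leukocyte markers to 1160, 1984 and 1293, and keratinocyte markers to 699, 665 and 501. Sca-1 itself was not analysed here. Alcam gave 268, 41.1 and 36.3, the order of the sort, Ptprc, the gene of CD45, 11.6, 163 and 159, and Pecam1, the gene of CD31, was below the floor throughout.

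In the RefSeq promoters given here, 33 of the 42 collagen genes had an entry, 36 windows in all, of which 32 belong to genes above the floor. The GC box was found in 19 of these 32 windows (59.4%) and in 32.7% of 32851 windows over all genes. The RUNX-type core was in 12 (37.5% against 40.1%), the CCAAT box in 11 (34.4% against 33.8%) and the TATA box in 4 (12.5% against 12.4%). The SOX-type core was in 1 window, that of Col3a1, against 27.7% of all windows. Of the genes at least 4-fold lower in Sca-1+ than in double-negative cells, 10 windows were at hand and 3 held a TATA box, those of Col10a1, Col11a2 and Col13a1. The other motifs in these 10 windows were the GC box in 5, the RUNX-type core in 3, the CCAAT box in 3 and the SOX-type core in 0. Of the genes higher there, 5 windows from 4 genes were at hand. The CCAAT box was in 4 of them, the GC box in 3, the RUNX-type core in 2 and the others in 0. In their full length of 300 bases the windows of Col4a1 and Col4a2 overlap by 78. Motifs were counted only in the 250 upstream bases, which do not overlap for this pair. A match is a run of letters in this window and not a binding site.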

How the data were processed

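The 3 arrays, 1 for each population, were assigned by the title of each sample. TRIzol was used to extract total RNA, which was then amplified in 2 cycles and labelled with biotin, per the labels' protocols. The values analysed are the signal intensities deposited by the authors for 45101 probe sets, made with MAS5 per the submitters' processing notes, on a linear scale. The 2% trimmed mean was 500 on each array, so no further scaling was applied. That scaling hides differences in total RNA.

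The signal was above the floor for 49.7%, 48.9% and 51.4% of probe sets in ALCAM+, Sca-1+ and double-negative cells. Poly-A spike-in controls had geometric means of 262, 151 and 186, although the trimmed means were equal. Control probe sets (64) entered no gene result. Probe sets with 1 gene symbol (34945) gave 18193 genes. All 42 collagen genes were found in the RefSeq gene table (GRCm38.p6), which changed 0 symbols. Signals were raised to the floor, the pooled median (75.4), and turned to log2 with Python 3.11.15, numpy 2.4.6 and pandas 2.3.3. A difference of at least 4-fold was counted, in 3 comparisons. With 1 array per group no test was possible, and the number of arrays limits the precision. The procedure was tested on simulated data, copies of 1 array with large known changes put into bright genes. The added noise was smaller than the spread between probe sets here, so that test does not measure how reliable the 4-fold calls are. Every collagen gene above the floor is named. Members, classes, lists, motifs and alternatives were chosen with earlier results of these data known. Protein sequences were not used here.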

Additional observations from a re-analysis of the deposited data

How the results depend on the processing

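The alternatives were quantile normalization, scaling by poly-A or by hybridization spike-in controls, floors at the pooled 25th (21.1) and 75th percentile (433.9), the mean over all probe sets of a gene, and leaving out probe sets with the suffix _s_at or _x_at. Of 9 summary values (higher and lower counts and the median in 3 comparisons), 7 kept to within 1.5 times or within the spread between probe sets under each alternative. The exceptions were the 1 collagen gene lower in ALCAM+ than in double-negative cells, which became 3 under either spike-in scaling and 0 with probe sets averaged, and the median between ALCAM+ and Sca-1+ cells, 0.27, which became -0.49 and -0.48 under poly-A and hybridization scaling. These scalings moved the median of all genes to -0.75 and -0.74 there, to -0.45 and -0.46 between ALCAM+ and double-negative cells and to 0.25 and 0.24 between Sca-1+ and double-negative cells. Where a gene was represented by its brightest probe set, that probe set was picked again under each alternative. No call of a single gene reversed. Kept under all 7 alternatives were 8 of 13 genes lower and 5 of 5 higher in Sca-1+ than in double-negative cells, 10 of 13 higher and 5 of 7 lower in ALCAM+ than in Sca-1+ cells, and 3 of 4 higher and 0 of 1 lower in ALCAM+ than in double-negative cells. Col3a1 passed 4-fold between ALCAM+ and Sca-1+ cells under 4 alternatives, with log2 differences from -3.87 to -1.92 over all 7. With probe sets averaged, dim probe sets at the floor pull differences towards 0 by construction. No paired analysis was possible because each population has 1 array. Leaving out a replicate was not possible either.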
